A study of Homo sapiens with 24 samples.

Results

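The genes described here are CIC, genes of the negative feedback on MAP kinase signalling (DUSP4, DUSP5, DUSP6, SPRY2, SPRY4, SPRED1 and SPRED2) and the target activators ETV4 and ETV5, which makes 10 of the 20033 protein-coding genes on chromosomes 1 to 22, X and Y. A gene was counted as marked when a Myc peak reached within 1 kb of either end of its RefSeq span in hg38. The set was chosen by earlier results on these peaks, among them the high rank of the peak at CIC, so the peaks within 1 kb are given as a description and support nothing further. Myc CUT&Tag, in which a transposase is tethered to an antibody and inserts adapters into the chromatin nearby, had been done in MIA PaCa-2 cells. This established line comes from a human pancreatic carcinoma. All the cells used here held a doxycycline-inducible (Tet-On) MED30 construct, MED30 being a subunit of the Mediator complex. The series profiles chromatin with and without doxycycline in these cells and, for other targets, in cells with a Tet-On shMED30 construct. 1 library was made without doxycycline and 1 was titled as 5 days of doxycycline, here called day 5, although the shared protocol speaks of 2 days. The other 22 of the 24 samples, control IgG libraries included, were not analysed here, and the labels do not say whether the line is 1 clone. With 1 library per condition no difference below has a replicate check, and none was tested.

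CIC (Capicua) is a DNA-binding repressor of the HMG-box family. When a growth factor receptor or mutant RAS activates the RAF, MEK and ERK kinases, ERK signalling inactivates CIC, and the genes it held down are transcribed. Among its known target genes are ETV4 and ETV5, 2 ETS-family activators, and several of the genes that dampen the pathway: the dual-specificity phosphatases (DUSP), which dephosphorylate MAP kinases, and the sprouty (SPRY) and spred (SPRED) proteins, which act on signalling from receptors and RAS. Myc, with its partner MAX, binds E-boxes, of the general form CANNTG and best of the form CACGTG. CIC binds octamers such as TGAATGAA, and ETS factors a core of GGAA.

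The RefSeq promoter table for GRCh38.p14 (the hg38 assembly) held 300-base windows, from 250 bases before a gene start to 50 after it, for 6 of the 10 genes: 3 windows for CIC, 3 for SPRY2, 2 for SPRED2 and 1 each for DUSP6, SPRY4 and SPRED1. DUSP4, DUSP5, ETV4 and ETV5 had no window in the table used here and were named only. The sequences printed here are both CIC windows that the Myc peak touched, the SPRED1 window beside which a Myc peak lay, and the DUSP6 window, which had no Myc peak near it. Each is read 5′ to 3′ along the gene's own strand, and capitals mark matches, on either strand, to CANNTG (which includes CACGTG) or to 1 of 4 forms of the CIC octamer, TGAATGAA, TCAATGAA, TGAATGGA and TCAATGGA. The last 2 of these forms were added after the sequences had been seen.
CIC, first listed start (chr19:42268280-42268579, plus strand): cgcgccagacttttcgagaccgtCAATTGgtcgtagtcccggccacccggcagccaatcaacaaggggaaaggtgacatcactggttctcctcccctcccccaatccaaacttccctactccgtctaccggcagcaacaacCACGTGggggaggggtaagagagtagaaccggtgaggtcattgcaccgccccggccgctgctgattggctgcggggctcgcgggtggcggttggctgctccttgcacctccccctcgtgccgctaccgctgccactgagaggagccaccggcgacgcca
CIC, second listed start (chr19:42269002-42269301, plus strand): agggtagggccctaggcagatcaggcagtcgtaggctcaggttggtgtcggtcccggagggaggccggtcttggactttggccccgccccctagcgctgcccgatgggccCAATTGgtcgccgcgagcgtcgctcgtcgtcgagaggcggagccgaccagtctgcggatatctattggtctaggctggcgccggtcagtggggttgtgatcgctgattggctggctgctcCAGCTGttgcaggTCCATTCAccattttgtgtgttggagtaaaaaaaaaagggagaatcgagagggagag
SPRED1 (chr15:38252586-38252885, plus strand): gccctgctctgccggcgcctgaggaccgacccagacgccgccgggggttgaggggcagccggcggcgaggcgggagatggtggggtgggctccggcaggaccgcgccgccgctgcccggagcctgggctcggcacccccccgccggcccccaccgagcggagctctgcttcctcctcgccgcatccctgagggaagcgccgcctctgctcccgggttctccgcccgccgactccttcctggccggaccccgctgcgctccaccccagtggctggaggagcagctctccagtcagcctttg
DUSP6 (chr12:89352452-89352751, minus strand): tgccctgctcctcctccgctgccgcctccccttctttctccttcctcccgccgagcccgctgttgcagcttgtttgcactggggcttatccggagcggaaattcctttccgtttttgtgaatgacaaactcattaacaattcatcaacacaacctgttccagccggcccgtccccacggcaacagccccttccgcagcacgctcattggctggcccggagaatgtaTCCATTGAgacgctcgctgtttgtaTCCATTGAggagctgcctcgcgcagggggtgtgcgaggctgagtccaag

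Of the 11 windows of these 6 genes, the first CIC window was the one that held CACGTG. It lay 109 bases before the first start, at 42268421 to 42268426 of chromosome 19, inside the Myc peak of both libraries. CACGTG was present in 7.26% of all 35116 windows of the promoter table, which does not cover every gene. The general E-box was found in 5 of the 11 windows, from CIC, SPRED2 and SPRY2, and in 68.7% of all windows. The DUSP6 window held TCAATGGA at 2 places, 24 bases before the start and 1 base after it, where 0.51% of all windows held that octamer. TGAATGGA stood 7 bases before the second CIC start, beyond the end of the Myc peak, and 1.03% of all windows held it. Both forms were added after these sequences had been seen, so nothing is read from their shares. Any of the 4 forms was in 3.77% of all windows. TGAATGAA and TCAATGAA were in 0 of the 11 windows, against 1.65% and 0.718% of all windows. GGAA was in 10 of the 11 windows and in 95.5% of all windows. These matches describe letters in a window and are not evidence of binding, and windows such as these reach neither the summit at CIC nor the peak at SPRED1.

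Without doxycycline 3 of the 10 genes were marked, CIC, SPRED1 and ETV5, where 14.4% of all protein-coding genes were. At day 5 the marked genes were these 3 and ETV4, 4 of 10, where 27.4% of all protein-coding genes were marked. Thus 3 genes were marked in both libraries (12.9% of all genes), 1 only at day 5 (14.5%) and 0 only without doxycycline (1.57%). None of the phosphatase genes DUSP4, DUSP5 and DUSP6, neither sprouty gene and not SPRED2 was marked in either library, so 4 of the 10 were marked in either, against 28.9% of all genes. Because the set was drawn up with these peaks known, nothing is read from these shares. A gene without a listed peak may still bind Myc below the threshold of the peak caller.

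**Figure D1:**
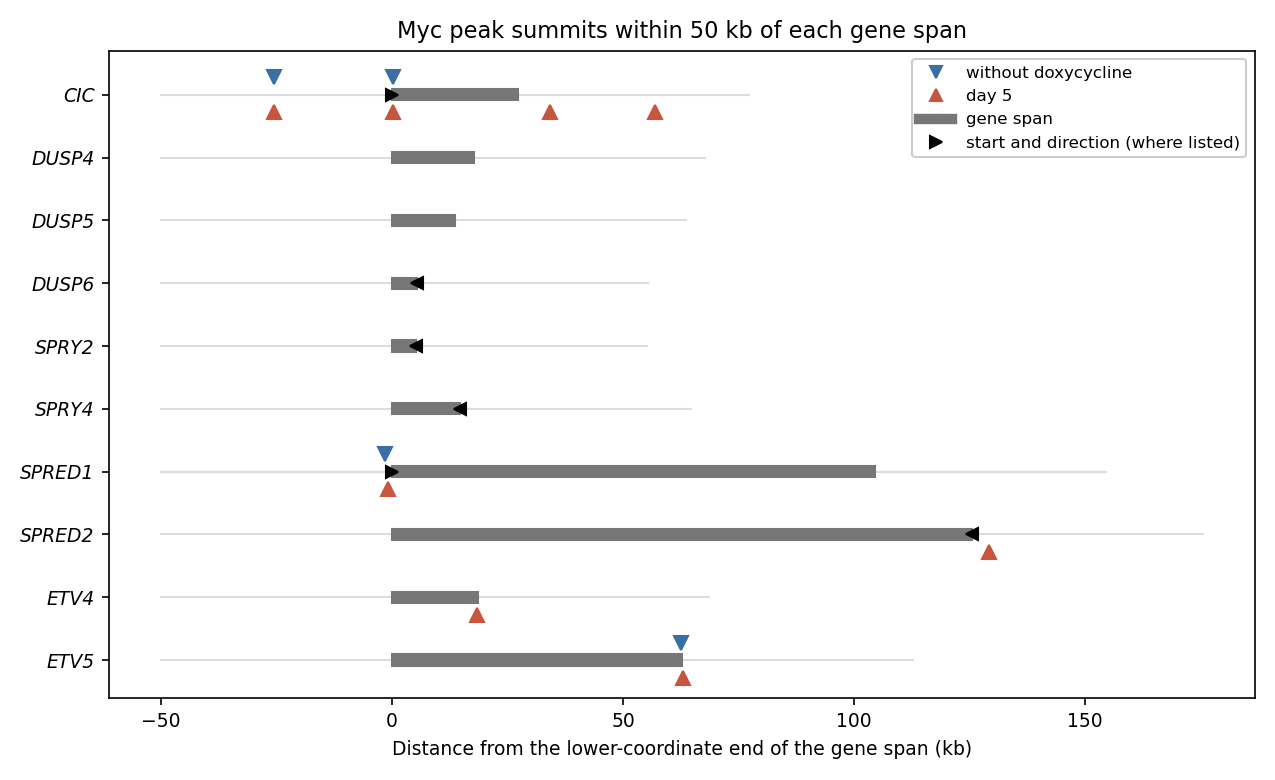
Summits of Myc peaks within 50 kb of each gene, as distance in kb from the lower-coordinate end of the gene span (grey bar); downward blue marks are the library without doxycycline, upward red marks day 5, and black arrowheads the end at which transcription starts and its direction where the promoter table lists it. CIC, SPRED1 and ETV5 carry marks from both libraries at 1 end of the span, ETV4 a day 5 mark alone, and DUSP4, DUSP5, DUSP6, SPRY2 and SPRY4 none.

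CIC (chromosome 19, gene span 42268530 to 42295796) had the strongest Myc peak of the set in both libraries. Without doxycycline its peak covered 42268372 to 42269098 and held 61 fragments over the summit (exact Poisson 95% interval of counting error 46.7 to 78.4). At day 5 it covered 42268351 to 42269098 and held 86 fragments (68.8 to 106). Fragments over the summit are whole sequenced fragments recovered from the fold and the p-value that the authors deposited. The median peak of the 2 lists held 11 and 12. By −log10 q, the authors' measure of confidence in a peak, the CIC peak was rank 15 of 3472 without doxycycline and rank 13 of 6727 at day 5, the upper 0.432% and 0.193% of each list. Its −log10 q was 51.5 and 69.7 and its fold over local background 15.5 and 15.1, values that hold within each library.

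The CIC peak kept its place. Both summits lay just inside the gene, 179 and 200 bp after the first listed start, and were 21 bp apart, where the median distance over 2854 pairs of overlapping peaks was 117 bp. CIC has a second listed start 722 bases further on and another deep inside the span, where no peak was listed. The peak took in 208 and 229 of the 300 bases of the first promoter window and 97 of the second in both libraries, and 0 of the last. The CACGTG of the first window lay 283 and 304 bp from the summits, nearer the edge of the peak. No other gene of the annotation had an end within 1 kb of it.

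The summit fragments at CIC were 1.41 times as many at day 5 (interval of counting error 1.0 to 1.99). That is the ratio the lists had in general: the median over the 2854 overlapping pairs was 1.43 (quartiles 1.12 and 1.78), and 51.9% of pairs had a higher ratio. Among the 345 pairs whose peak without doxycycline ranked within the upper 10% of its list, as CIC does, the median ratio was 1.2. The local background at CIC, recovered in the same way, was 3.0 fragments without doxycycline and 4.74 at day 5, a ratio of 1.58 beside a median of 1.6. Total reads per library are not in the lists, and the part of depth in this ratio was not tested.

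CIC shared its neighbourhood with other Myc peaks. A peak beside the higher-coordinate end of GSK3A, which encodes a glycogen synthase kinase, lay 25216 bp from the CIC span. It held 31 fragments (21.1 to 44.0) without doxycycline and 29 (19.4 to 41.6) at day 5. A second one, across an end of PAFAH1B3 and inside the overlapping PRR19, 6406 bp beyond the far end of CIC, was listed at day 5 alone with 21 fragments (13.0 to 32.1). No other gene of the set had more than 1 peak within 50 kb of its span.

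The protein-coding genes whose summit fragments in both libraries were nearest to those of CIC were DCAF11 and NRL, which share 1 peak with 60 and 83 fragments. EIF3B, a translation initiation factor subunit, and SNX8, a sorting nexin, tied next and share a peak with 63 and 96. Likeness was the summed absolute log2 difference of the fragment pair over the 2 libraries, 0.075 for the first pair of genes and 0.205 for the second, among 2580 genes with a peak in both.

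**Figure D2:**
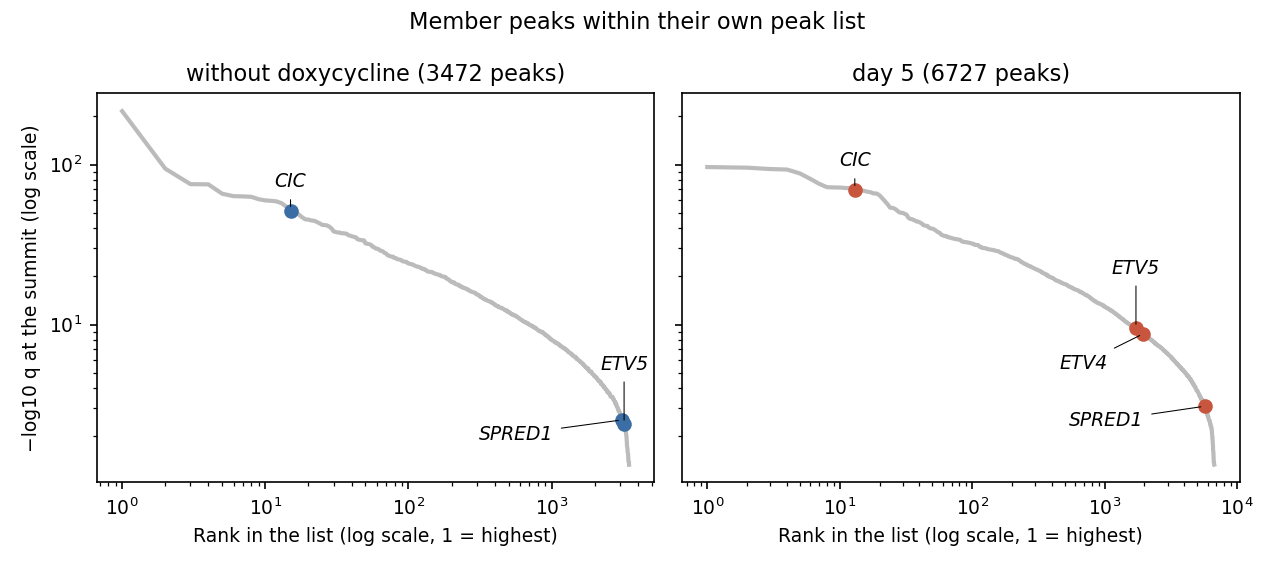
The −log10 q of every Myc peak against its rank in its own list, both on log scales, with the peaks of the marked genes as dots. CIC stands at rank 15 and 13, ETV5 and ETV4 at 1726 and 1966 at day 5, and SPRED1 near the lower end of both lists.

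ETV5 and ETV4 are the target activators of the set. The ETV5 span is 186046314 to 186109089 on chromosome 3, and, as background, the gene is transcribed from the minus strand, so that its start is the higher coordinate. Without doxycycline a peak at 186108535 to 186109017 held 6 fragments (2.2 to 13.1), rank 3205 of 3472. At day 5 a peak at 186108642 to 186109376 held 17 (9.9 to 27.2), rank 1726 of 6727. The summits lay 358 bp inside the span end and 93 bp outside it, 451 bp apart, and 5.92% of the overlapping pairs had summits farther apart than that.

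The ratio of fragments at ETV5 was 2.83 (1.07 to 8.78), and 3.05% of pairs had a higher one. Divided by the median of all overlapping pairs, 1.43, the ratio was 1.98 (0.746 to 6.14), an interval that reaches below and above that median. It starts from a peak near the lower limit of the first list, and the 176 pairs from the lowest 10% of that list had a median ratio of 2.0. The local background at ETV5 was 0.552 fragments without doxycycline and 1.49 at day 5, a ratio of 2.7. Its part in the peak was not tested.

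ETV4 (chromosome 17, 43527846 to 43546340, also a minus-strand gene as background) had no listed peak without doxycycline, when the nearest lay 139 kb away beside the non-coding LINC00910. At day 5 a peak at 43545606 to 43546461 reached across the span end, with its summit 177 bp inside, 15 fragments (8.4 to 24.7) and rank 1966 of 6727. The end of DHX8, an RNA helicase of splicing, was 807 bp from this peak and 1364 bp from its summit, so the peak marks both genes by the rule. The ETV4 and ETV5 intervals at day 5 overlapped widely, and both genes ranked in the upper 29.2% and 25.7% of that list.

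SPRED1 and SPRED2 encode membrane-bound inhibitors that bring neurofibromin to RAS. SPRED1 (chromosome 15, 38252836 to 38357249) was marked in both libraries by a weak peak before its start. Without doxycycline the peak at 38251363 to 38251875 held 6 fragments (2.2 to 13.1), rank 3124 of 3472, and ended 961 bp short of the span. At day 5 the peak at 38251279 to 38252224 held 8 (3.45 to 15.8), rank 5717 of 6727, and ended 612 bp short.

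The SPRED1 summits were 1469 and 823 bp before the start, 646 bp apart, and 1.33% of overlapping pairs had summits farther apart. The fragment ratio was 1.33 (0.406 to 4.66), an interval that includes both a fall and a rise. No base of the SPRED1 promoter window printed above lay in a peak. The gene body of 104.4 kb carried 0 peaks in both libraries.

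SPRED1 without doxycycline was the last gene inside the 1 kb limit, and SPRED2 at day 5 the first outside it. Without doxycycline the first outside was DUSP5, at 55.6 kb. SPRED2 (chromosome 2, 65307175 to 65432599) had a day 5 peak 3644 bp before its start, at 65436243 to 65436663, with 9 fragments (4.12 to 17.1) and rank 6390 of 6727. Without doxycycline its nearest peak was 78.8 kb away, at ACTR2. The SPRED2 body of 125.4 kb held no peak in either library.

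**Figure D3:**
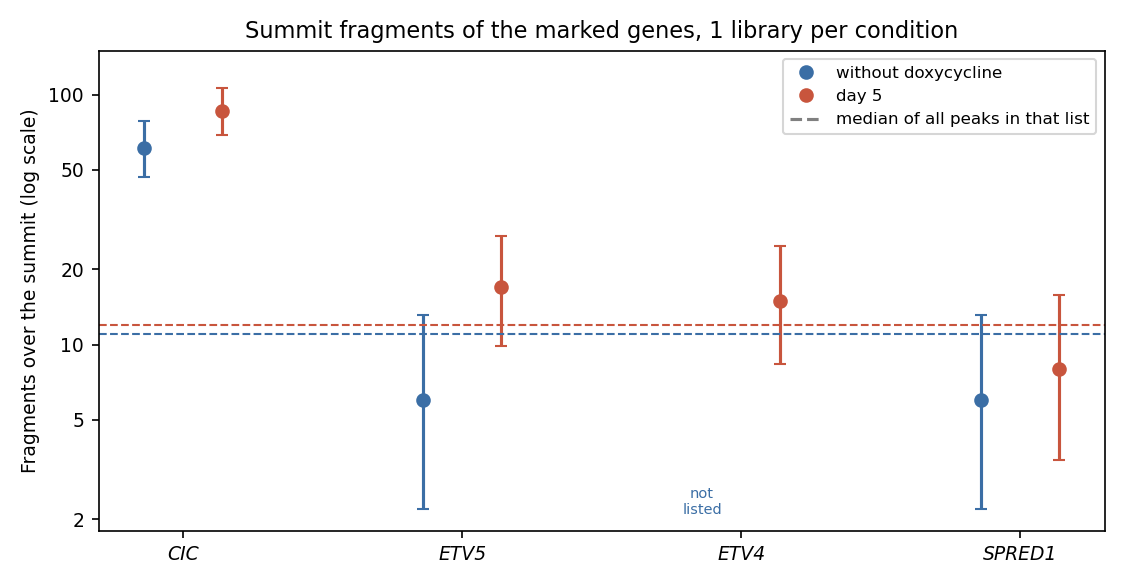
Fragments over the summit (log scale) for the peak within 1 kb of each marked gene, blue without doxycycline and red at day 5, with exact Poisson 95% intervals as bars and the median of all peaks of each list as a dashed line. CIC, at 61 and 86, lies above the median in both libraries, and ETV5, ETV4 and SPRED1 have intervals that include the median of their list.

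The phosphatase genes had no Myc peak within 50 kb. DUSP6, the cytoplasmic ERK phosphatase, lay farthest from one at day 5: the gene (chromosome 12, 89347235 to 89352501) was 1205004 bp from the nearest peak at day 5 and 1204972 bp without doxycycline, both at CEP290. At day 5, 3.65% of protein-coding genes were farther from their nearest peak, and without doxycycline 9.42% were. DUSP4, a nuclear MAP kinase phosphatase (chromosome 8, 29333064 to 29350684), was 443 kb from a peak at INTS9 and HMBOX1 in both libraries. DUSP5, the nuclear ERK phosphatase (chromosome 10, 110497907 to 110511533), was 55.6 and 55.7 kb from a strong peak beside SMC3, a cohesin subunit. That peak held 26 and 45 fragments and ranked 212 and 112. Without doxycycline and at day 5, 23.8% and 12.1% of protein-coding genes were farther from a peak than DUSP4. For DUSP5 these shares were 62.0% and 42.6%.

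The sprouty genes were likewise without a peak within 50 kb. SPRY2 (chromosome 13, 80335976 to 80341126) was 4790 kb from the nearest peak without doxycycline, at UCHL3, and 0.923% of protein-coding genes were farther. At day 5 a peak of 7 fragments, rank 3760, was listed 184 kb away at the non-coding LOC105370275, and 23.7% of protein-coding genes were farther. SPRY4 (chromosome 5, 142310430 to 142325021) was 187 kb from a peak of 9 fragments without doxycycline and 61.4 kb from a peak of 15 at day 5, both nearest an end of SPRY4-AS1, the non-coding gene beside SPRY4. Farther from a peak than SPRY4 were 40.3% of protein-coding genes without doxycycline and 41.1% at day 5. Distances are from the gene span to the nearest edge of a peak.

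Over a wider window nearly the same genes of the set had a peak, while the share of all genes rose. Without doxycycline the 3 marked genes alone had a peak within 50 kb of their span, and at day 5 the 4 marked genes and SPRED2 did. These are 30.0% and 50.0% of the set, below the 36.6% and 55.9% of all protein-coding genes. Within 1 kb the set, at 30.0% and 40.0%, had been above the shares of all genes. Nothing is read from this either. The median distance to the nearest peak over all genes was 112 kb without doxycycline and 32.7 kb at day 5. These distances follow the number of peaks in a list as well as their place.

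**Figure D4:**
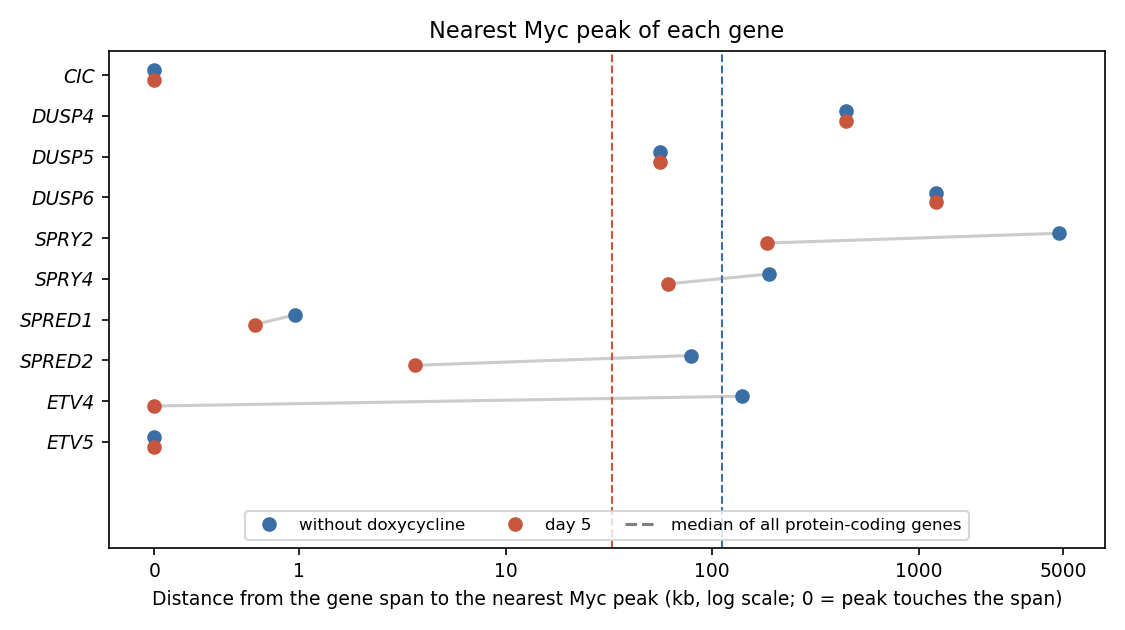
Distance from each gene span to the nearest Myc peak in kb on a log scale, with 0 drawn at the left where a peak touches the span; blue is without doxycycline, red day 5, and the dashed lines the medians of all protein-coding genes. DUSP4, DUSP5 and DUSP6 lie at nearly the same distance in both libraries, and SPRY2, SPRY4, SPRED2 and ETV4 have a nearer peak at day 5.

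Other genes of the pathway came from 7 lists with 76 genes, all matched by symbol. Without doxycycline 15 of them (19.7%) were marked and at day 5 29 (38.2%), 14 of them in both libraries, beside the 14.4% and 27.4% of all protein-coding genes. A peak can mark more than 1 neighbouring gene. Of 7 further dual-specificity phosphatases 0 were marked without doxycycline and 2 at day 5, DUSP2 with 23 fragments and DUSP7 with 11. Of 11 further negative regulators 3 and 5 were marked. Among these were LZTR1, an adaptor for the degradation of RAS, with 7 and 23 fragments, PEBP1, the RAF kinase inhibitor protein, with 7 and 11, SPRED3 with 9 and 11, and NF1, neurofibromin, at day 5 alone with 7.

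Of the 7 partners of CIC and kinases that act on it 1 was marked, in both libraries: SRC, with 5 and 9 fragments. The day 5 summit at SRC, 37406604, lay beyond the higher-coordinate end of its span (37344699 to 37406050). Neither ATXN1 nor ATXN1L, the ataxin proteins that bind CIC, was marked. Of 13 receptors and adaptors 3 and 8 were marked. SHC1, the adaptor that links receptors to GRB2, had 56 and 62 fragments at ranks 46 and 163, the highest of the 7 lists. The day 5 summit at SHC1, 154974722, lay just outside its span (154962298 to 154974376). SOS1, an exchange factor that loads RAS with GTP, had 11 and 17, the receptor ERBB3 9 and 17, and ERBB2 14 at day 5 alone. The day 5 summit at ERBB3, 56104394, lay beyond the higher-coordinate end of its span (56080108 to 56103505). The rule counts either end of a span, so a marked gene need not have the peak at its start. Neighbouring genes that share the peaks of these lists were not looked up, so a peak may belong to a neighbour.

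Of 14 genes from RAS to ERK 4 and 5 were marked. ARAF had 12 and 30 fragments, NRAS 11 and 17, and SHOC2, a scaffold for RAF activation, 13 at day 5 alone. Of 12 transcription factors downstream of ERK 4 and 5 were marked: EGR1 with 14 and 26 fragments, SRF with 12 and 21, ELK1 with 16 and 18 and ETV1, the remaining factor of the ETV4 and ETV5 subfamily, with 10 and 13. FOS was marked at day 5 alone. Of 12 other ERK output genes 0 and 3 were marked, TRIB1 with 16 fragments, CCND1 with 18 and PHLDA1 with 9.

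**Figure D5:**
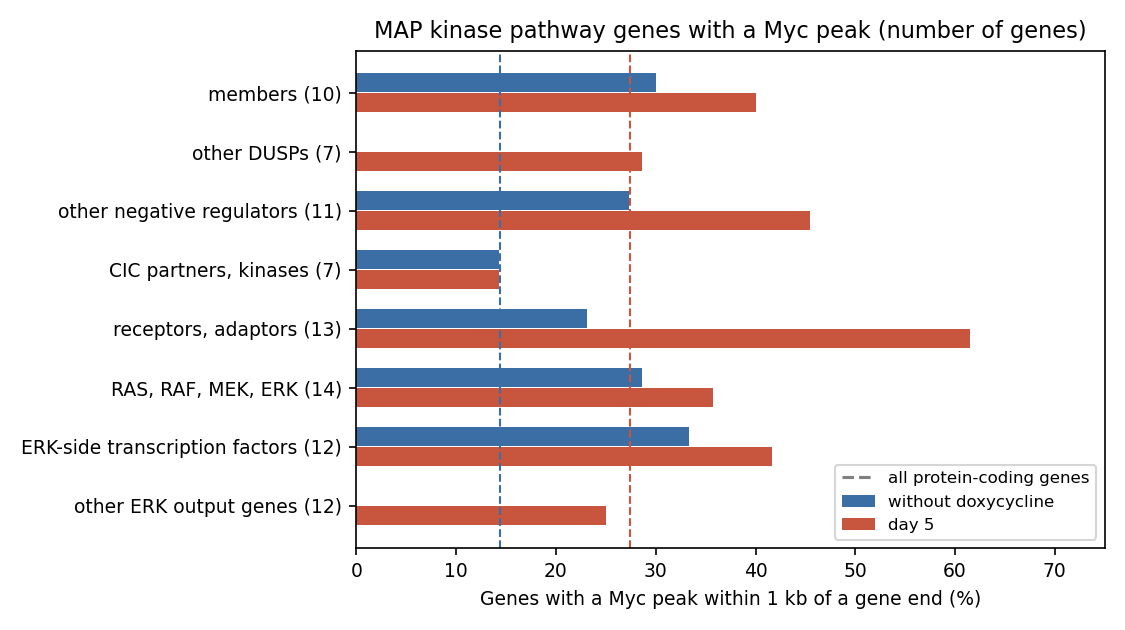
Share of genes with a Myc peak within 1 kb of a gene end in the set and in the 7 pathway lists (number of genes in brackets), in percent; bars are blue without doxycycline and red at day 5, and dashed lines the shares of all protein-coding genes, 14.4% and 27.4%. Receptors and adaptors have the longest day 5 bar, 8 of 13 genes, while further phosphatases and other ERK output genes have no bar without doxycycline.

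As a look at the cell type, peaks cannot stand in for expression. Of 5 epithelial markers, KRT8, KRT18, KRT19, EPCAM and CDH1, 0 were marked. Of 3 mesenchymal markers VIM was marked in both libraries and ZEB1 at day 5. Of the acinar, endocrine, leukocyte and stromal markers 0 were marked. With 3 or 5 genes per list and 14.4% and 27.4% of all genes marked, these counts do not tell cell types apart.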

How the data were processed

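The data are 2 Myc CUT&Tag peak lists, called per library, with 3559 and 6953 peaks, and 3472 and 6727 once contigs and the mitochondrial genome were set aside. Reads were processed with Bowtie2, Trim Galore, MACS2 and deepTools on hg38, per the submitters' processing notes. Versions, settings and any control used in calling: not given in the sources used here. For each peak the authors deposited the fold over local background (a ratio), the −log10 p and −log10 q, and a score, which is the integer part of 10 times the −log10 q. Columns are as the layout of the lists shows, since they have no header. Total reads are unknown, so of the peak values only recovered fragments and local background were set side by side between lists, beside their ratios over all shared peaks.

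Fragments k and local background were recovered from fold = (k + 1)/(background + 1) and a Poisson tail, with whole numbers within 0.001 in −log10 p for 100% of peaks of both lists. On simulated data the fragments of 100% of 3472 and 6727 simulated peaks were recovered. Of 200 genes with peaks planted near them, 100% were correctly marked or left unmarked. The simulation used the same formulas and distance rule, so it checks the code and not whether they suit the real peaks. Duplicates cannot be seen in lists, so Poisson, and binomial-based ratio, intervals reflect the counting of fragments alone. RefSeq GRCh38.p14 gave the gene spans, and peaks overlapped at 1 bp or more. Members and lists were chosen with earlier results of these data known. Named were all members, up to 4 genes of each list with the highest-ranked day 5 peak, the 3 genes most like CIC with ties, and neighbours of member peaks; FOS, ATXN1 and ATXN1L were added after their values were seen. Some genes that this rule would name are not reported here. Alternatives were windows of 500, 2500 and, added later, 5000 bp, stricter lists, equal numbers of peaks, summits in place of edges, gene starts alone and stricter overlap. Planned motif counts in peak sequences and protein identities were not made. Python 3.11.15, NumPy 2.4.6, pandas 2.3.3 and SciPy 1.17.1 were used.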

Additional observations from a re-analysis of the deposited data

How the results depend on the processing

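The peak of CIC was listed under every alternative run in both libraries, which the rule that chose the genes favours. Keeping only the 1736 and 3363 highest-ranked peaks left 1 marked gene without doxycycline, CIC, 3 at day 5, CIC, ETV4 and ETV5, and 1 in both libraries, and 8 and 17 genes of the pathway lists beside 8.02% and 15.3% of all genes. A −log10 q of at least 5 left the same counts of marked genes, 1, 3 and 1, with 8 and 19 pathway genes beside 8.65% and 18.1%. With as many day 5 peaks as the other list holds, 18 pathway genes were marked at day 5 and 15.8% of all genes. Gene starts alone, known for 6 of the 10 genes, left 2 marked in each library, CIC and SPRED1. Of the 15842 protein-coding genes with a listed start, 15.0% and 28.3% were marked. All these counts of marked genes fall by construction, as fewer peaks or genes enter. SPRED1 was lost in both libraries with a window of 500 bp, which marked 13.4% and 25.7% of all genes, and with both stricter lists. At day 5 it was also lost with equal numbers of peaks (leaving 3 genes at day 5 and 2 in both libraries). Without doxycycline it was also lost with summits in place of edges, which marked 13.9% of all genes. SPRED2 was added at day 5 by a window of 5000 bp, chosen after seeing the data, which marked 32.2% of all genes at day 5. Of 3 shared peaks 3 remained at a reciprocal overlap of 50%, and 2 with summits within 500 bp. Divided by the median ratio of shared peaks, the fragment ratios were 0.987 for CIC (0.703 to 1.39), 0.933 for SPRED1 (0.284 to 3.26) and 1.98 for ETV5 (0.746 to 6.14). Of 61 values under alternatives 45 stayed within 1.5 times the reported count, or within the interval of the reported ratio. Counts in E-boxes of peak sequences were not run. Fragments as few as 6 limit what can be said of ETV5 and SPRED1. No paired analysis was possible because each condition has 1 library and no test was made.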

Other observations

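Over all 35116 promoter windows of the RefSeq table, those with CACGTG overlapped a Myc peak in 19.9% of cases without doxycycline and 33.8% at day 5, and those without it in 8.35% and 16.8%. For the general E-box CANNTG the order was the opposite, 8.13% and 15.5% of windows with it and 11.5% and 23.5% of windows without it. Windows with any of the 4 forms of the CIC octamer, 3.77% of all, overlapped a day 5 peak in 8.39% of cases, and windows with none in 18.4%. Windows differ in base composition: the median GC content was 58.7% over all windows and 65.3% over those that overlapped a day 5 peak. The part of GC content in these shares was not tested. The CIC windows had 64.3%, 61.0% and 85.0%, the SPRED1 window 76.3% and the DUSP6 window 58.3%.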
